A study of Mus musculus with 12 samples.

Results

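The T cell receptor beta (TCR beta) gene segments are the variable (Trbv), diversity (Trbd), joining (Trbj) and constant (Trbc) genes of a single locus on mouse chromosome 6. Members were all genes of the deposited count table with such a symbol and with at least 10 counts summed over the 12 libraries. Of 43629 genes in the table, 52 had such a symbol and 45 qualified: 27 of 34 variable segments, both diversity segments, all 7 joining segments of cluster 1, all 7 of cluster 2 and both constant genes. The annotation calls 7 members pseudogenes, 6 variable segments and Trbj2-6. Just inside the minimum lay Trbv25 with 12 counts and Trbv10 with 18, and just outside it Trbv11 with 8 and Trbv7 with 6.

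The series holds 3 groups of pre-T cells, sorted from C57BL/6 thymus, with 4 biological replicates each. DCKO DN3 cells, described by the submitters as DN3-like, carried Zfp36l1fl/fl and Zfp36l2fl/fl together with CD2cre, a Cre recombinase under CD2 control that acts in lymphoid cells. Control DN3b and control DN3a cells carried the same floxed alleles without a listed Cre. The products of Zfp36l1 and Zfp36l2 bind AU-rich elements in messenger RNA and promote its decay. The DCKO group is not divided into an a and a b stage, and the sources used here do not give the ages and sexes of the mice.

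In thymocytes the TCR beta gene is assembled from its segments by the RAG recombinase, first a diversity to a joining segment and then a variable segment to that product. The assembled variable region is spliced to a constant gene, and the chain pairs with the invariant pre-T alpha chain to form the pre-TCR. DN3a cells are at the stage of this assembly. DN3b cells have passed beta selection, the checkpoint that keeps cells with a working beta chain. Unrearranged segments are also transcribed, so a count on a segment does not by itself come from an assembled gene. The count table does not separate the sources of a read.

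The locus was read in order along chromosome 6 (GRCm38, GENCODE release M21). It opens with Trbv1 at 40891229 to 40891885 and the other variable segments, followed by Trbd1 at 41533201 to 41533212, the joining segments of cluster 1 from 41533864, and Trbc1 at 41538218 to 41539881. The second block holds Trbd2 at 41542163 to 41542176, the joining segments of cluster 2 from 41542754, and Trbc2 at 41546730 to 41548352. Trbv31, at 41557691 to 41558452, lies beyond Trbc2 and is the only member on the minus strand.

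The segments the results turn on are short, and their sequences show what a read can land on. The diversity segments are shown whole because Trbd1 differed between groups and Trbd2 is its counterpart, with the run of G in capitals.
Trbd1: gggacaGGGGGc
Trbd2: gggactGGGGGGGc
The first joining segment of each cluster is shown because both stood highest in DCKO DN3, with the pseudogene Trbj2-6 beside them. Capitals mark the codons TTN, GGN, NNN and GGN in a row, searched on the printed strand in any frame, which cover the Phe-Gly-X-Gly motif of joining segments. These letters stand in 11 of the 14 joining segments and not in Trbj1-6, Trbj1-7 and Trbj2-6.
Trbj1-1: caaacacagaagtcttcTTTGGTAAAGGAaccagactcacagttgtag
Trbj2-1: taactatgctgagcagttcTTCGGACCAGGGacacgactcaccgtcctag
Trbj2-6: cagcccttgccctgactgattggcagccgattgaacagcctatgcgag
The last 30 bases of 5 variable segments are shown because close relatives among them behaved differently. Capitals mark TGTGCCAGC, the codons that start with the conserved cysteine of the junction, searched on the printed strand and held in these 30 bases by 15 of the 27 variable members.
Trbv12-1: tctgctatgtacttcTGTGCCAGCtctctc
Trbv12-2: tctgccgtgtacttcTGTGCCAGCtctctc
Trbv13-1: catctttgtacttcTGTGCCAGCagtgatg
Trbv13-2: catcagtgtacttcTGTGCCAGCggtgatg
Trbv13-3: cagctgtatatttcTGTGCCAGCagtgatg
All of these are annotated transcript sequences of GENCODE M21 on the plus strand of chromosome 6, not reads. Over the aligned length of their transcripts, Trbv12-1 and Trbv12-2 were 88.3% identical, Trbv13-1 and Trbv13-2 88.6%, Trbv13-2 and Trbv13-3 90.6%, and Trbc1 and Trbc2 96.1%. Reads of such relatives can be split or lost in counting, so a shift between relatives is less certain than a shift of a whole class.

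Libraries held 28479157 to 45975678 counts, of which the members took 0.147% to 0.211%. Both targeted genes were depleted in DCKO DN3: Zfp36l1 lay between 1.64 and 3.795 CPM (counts scaled to library size, with edgeR's TMM factors) in DCKO DN3, against 9.63 to 23.3 in control DN3b and 27.1 to 43.9 in control DN3a. Zfp36l2 lay between 45.4 and 87.9 CPM in DCKO DN3, against 287 to 467 in control DN3b and 341 to 685 in control DN3a. All 9 markers of DN3 pre-T cells (among them Il2ra, Ptcra and Rag1) averaged above 1 CPM in every group, but not at equal levels. By the edgeR tests described below, 3 rose and 0 fell in DCKO DN3 against control DN3b (18.9% of all genes called). Against control DN3a 2 rose and 1 fell in DCKO DN3 (60.2%), and 1 rose and 6 fell in control DN3b (52.6%). Il2ra was lower than in control DN3a in both DCKO DN3 (log2 -1.54, adjusted p = 0.000783) and control DN3b (-2.2, 0.00013). Control DN3b library 1 stood apart from its group at this locus, with the least variable and the most joining segment signal of the 4. DCKO DN3 libraries 1 and 2 differed from libraries 3 and 4 in the mix of variable segments.

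Summed over each class, DCKO DN3 cells had little variable segment signal, much joining segment signal, and constant gene signal that overlapped that of control DN3b. The joining segments are 46 to 54 bases long, and how a read across more than 1 segment was counted is not known here. The sums are therefore levels of counted reads and not amounts of RNA that compare between classes. Variable segments summed to 44.4, 48.2, 51.5 and 37.7 CPM in DCKO DN3, against 206, 313, 332 and 404 CPM in control DN3b and 113, 111, 114 and 121 CPM in control DN3a. The 3 groups did not overlap. Joining segments of cluster 1 summed to 149, 134, 237 and 221 CPM in DCKO DN3, against 96.0, 61.1, 30.8 and 24.6 CPM in control DN3b and 79.4, 161, 133 and 86.0 CPM in control DN3a. DCKO DN3 lay above all control DN3b libraries and overlapped control DN3a. Joining segments of cluster 2 summed to 57.6 ± 2.55 CPM in DCKO DN3, 36.3 ± 6.92 CPM in control DN3b and 42.5 ± 2.90 CPM in control DN3a (SD, n = 4 each), with DCKO DN3 above both control groups in every library. Trbj2-1 alone averaged 32.4 CPM in DCKO DN3, 11.1 in control DN3b and 13.0 in control DN3a. By the tests below, no other joining segment of cluster 2 was called higher against both control groups. Constant genes summed to 1729 ± 130 CPM in DCKO DN3, 1681 ± 66.4 CPM in control DN3b and 1150 ± 62.9 CPM in control DN3a. These sums over the members are given without a test. In bulk RNA, fewer cells with a transcript and less of it per cell cannot be told apart.

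**Figure D1:**
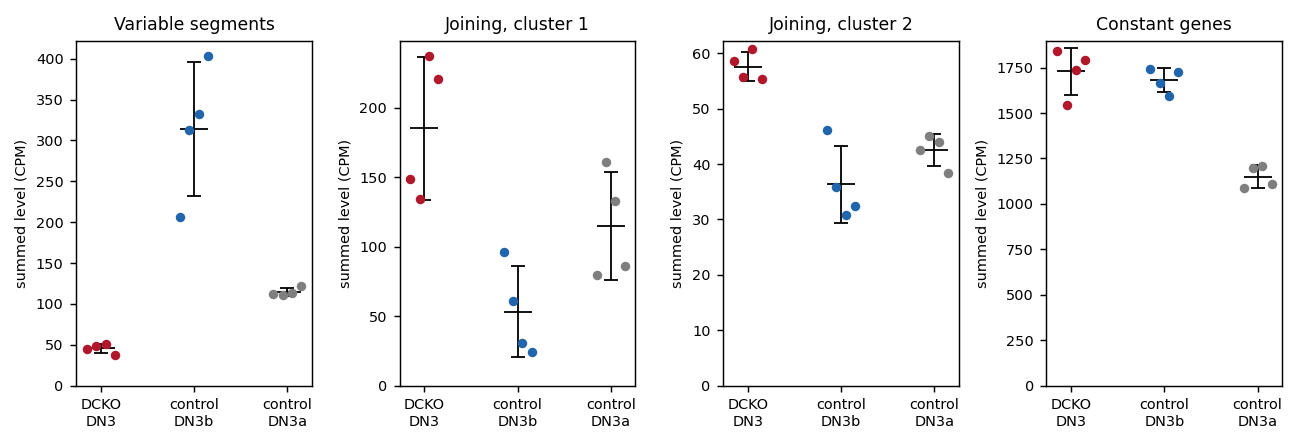
Summed level in CPM (y axis, from 0) of the variable segments, the joining segments of each cluster and the constant genes, in DCKO DN3, control DN3b and control DN3a (x axis); points are the 4 libraries of a group, the wide bar is their mean and the whiskers are ± 1 SD. Variable segments average 45.5 CPM in DCKO DN3, 314 in control DN3b and 115 in control DN3a, while constant genes average 1729, 1681 and 1150 CPM.

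As a share of all TCR beta counts, variable segments took 2.26% ± 0.398 in DCKO DN3, 15.01% ± 3.71 in control DN3b and 8.06% ± 0.779 in control DN3a (SD, n = 4 each). For every 100 constant gene counts there were 2.65 ± 0.474 variable segment counts in DCKO DN3, 18.7 ± 4.96 in control DN3b and 9.999 ± 0.814 in control DN3a. Libraries of the 3 groups did not overlap in either measure. Without control DN3b library 1, whose variable share was 9.85%, the control DN3b mean was 16.7%. Joining segments took 11.9% ± 2.05 of TCR beta counts in DCKO DN3, 4.29% ± 1.88 in control DN3b and 10.9% ± 2.13 in control DN3a.

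After edgeR's filter on low counts 41 of the 45 members were tested, 23 of them variable segments; Trbv10, Trbv21, Trbv22 and Trbv25 were not. Tests come from edgeR's quasi-likelihood fit of all genes, and a member is called at an adjusted p under 0.05. Set against control DN3b, 31 of the 41 members tested were called in DCKO DN3, 10 higher and 21 lower, beside 18.9% of all genes tested (10.3% higher, 8.58% lower). All 21 lower members were variable segments, of 23 tested, and their class had a median log2 fold change of -4.35, where all genes had -0.02. Of these members, Trbv5 and Trbv30 passed the low-count filter only through control DN3b, where they are high. The 10 higher members were all 7 joining segments of cluster 1, Trbj2-1 and Trbj2-3 of cluster 2, and Trbd1. Neither constant gene passed the test. DCKO DN3 and control DN3b libraries did not overlap for the 21 lower variable segments, a pattern that 9.87% of all genes showed.

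Set against control DN3a, 24 of the 41 were called in DCKO DN3, 3 higher and 21 lower, beside 60.2% of all genes (30.7% higher, 29.5% lower). Of the 23 variable segments 19 fell and 0 rose, with a median of -2.48 on the log2 scale, where all genes had -0.04. The libraries of both groups did not overlap for 18 of the 23, a pattern that 27.1% of all genes showed. Trbj2-4 and Trbj2-7 also fell, and Trbc1, Trbc2 and Trbj2-1 rose. Of the 7 joining segments of cluster 1, 0 passed and up to 2 passed in single alternatives. The authors' deposited DESeq2 table called Trbj1-1 (log2 1.25, adjusted p = 4.36e-05) and Trbj1-2 (0.659, 0.0122) higher in DCKO DN3. All 7 joining segments of cluster 1 had a positive log2 fold change, except that Trbj1-7 turned to -0.06 with upper quartile scaling and to -0.01 without DCKO DN3 library 3. Control DN3b set against control DN3a had 29 of the 41 called, 22 higher and 7 lower, beside 52.6% of all genes (27.4% higher, 25.2% lower). Among variable segments 20 of 23 rose and 1 fell in control DN3b, with a median of 1.89, and 4 joining segments of cluster 1, Trbj2-4 and Trbd1 fell. This fit does not use the replicate numbers, which pair the libraries of the control groups. With replicate number as a block Trbj1-1 (0.0239), Trbj1-5 (0.0185) and Trbj1-6 (0.019) also fell. The numbers do not pair DCKO DN3 with either control group. A block in the comparisons of DCKO DN3 matches libraries by number alone and costs degrees of freedom. The 3 comparisons share libraries in pairs, so their lists are not independent of each other.

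**Figure D2:**
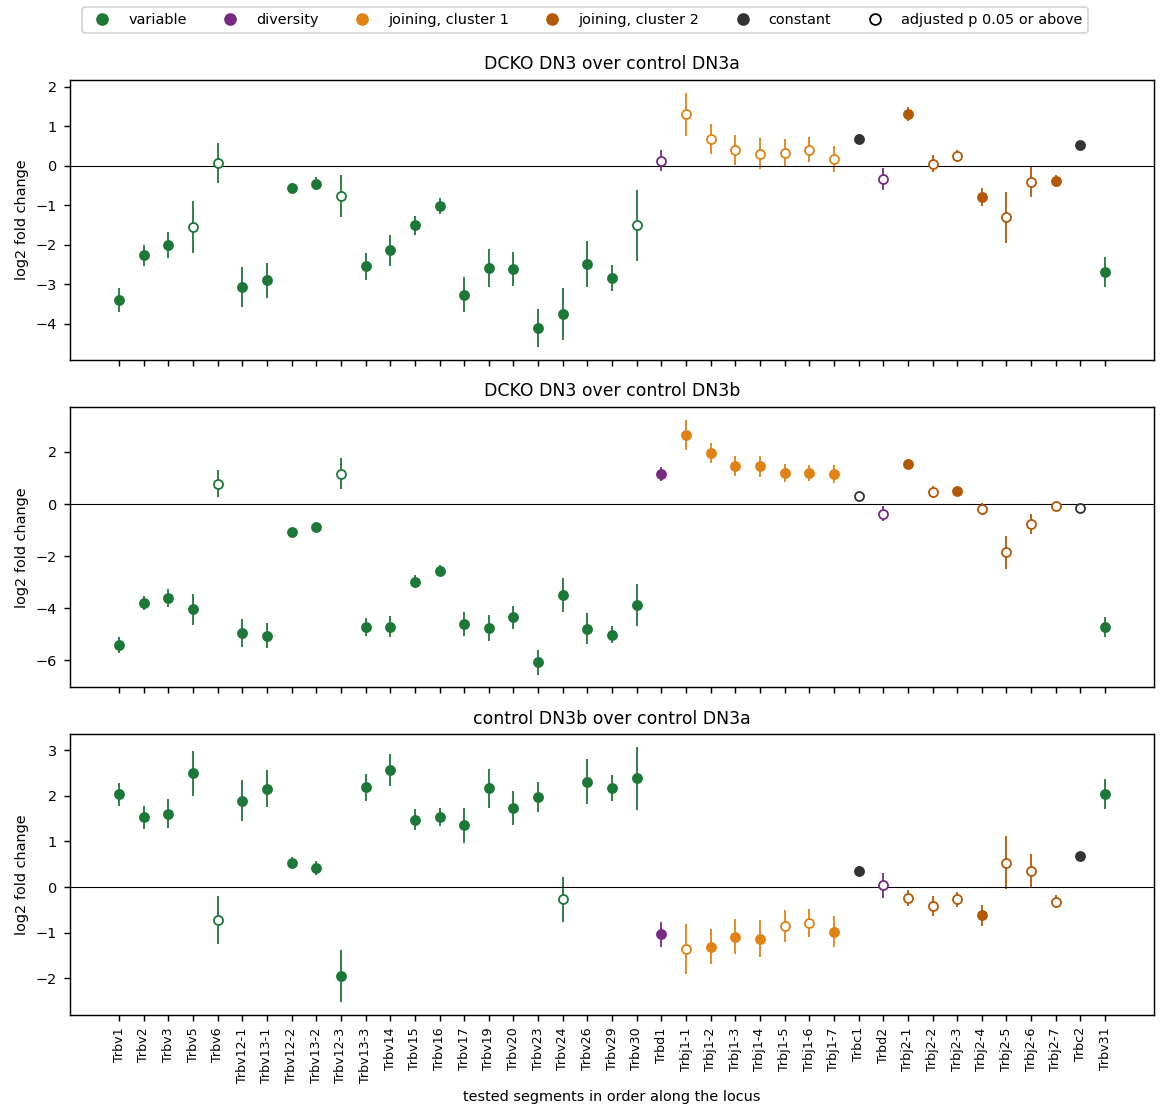
Log2 fold change (y axis, each panel to its own scale) of the 41 tested segments in their order along the locus (x axis) for DCKO DN3 over control DN3a, DCKO DN3 over control DN3b and control DN3b over control DN3a; whiskers are ± 1 SE, filled points passed an adjusted p of 0.05, open points did not, and colour gives the class. Variable segments lie below 0 in both DCKO DN3 panels apart from Trbv6 (which turned below 0 against control DN3a with upper quartile scaling) and, against control DN3b, Trbv12-3, and above 0 in control DN3b over control DN3a apart from Trbv6, Trbv12-3 and Trbv24; Trbv12-2 and Trbv13-2 lie nearest to 0 among those that passed in the DCKO DN3 panels.

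Trbv1 (ENSMUSG00000076461), the variable segment farthest from the joining clusters, was nearly lost from DCKO DN3. Its level was 0.403, 0.752, 0.471 and 0.383 CPM in DCKO DN3, against 12.3, 22.0, 24.5 and 29.0 CPM in control DN3b and 4.84, 4.74, 5.54 and 6.37 CPM in control DN3a. No library of any group reached into another group. In DCKO DN3 it was 42.9-fold below control DN3b (log2 -5.42 ± 0.31 SE, adjusted p = 9.99e-07) and 10.5-fold below control DN3a (-3.39 ± 0.30, 3.95e-06). In control DN3b it was 4.09-fold above control DN3a (2.03 ± 0.25, 6.68e-05).

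Trbv31 (ENSMUSG00000076499) sits at the other end of the locus, beyond the constant genes and in the opposite orientation, and joins by inversion. It showed the same order of levels. Its level was 0.444, 0.640, 0.314 and 0.128 CPM in DCKO DN3, against 6.17, 9.82, 11.0 and 13.6 CPM in control DN3b and 3.04, 2.07, 2.46 and 2.34 CPM in control DN3a. The groups did not overlap. The log2 fold change was -4.72 ± 0.39 against control DN3b (adjusted p = 9.51e-06) and -2.68 ± 0.37 against control DN3a (6.46e-05) for DCKO DN3, and 2.03 ± 0.33 (0.000293) for control DN3b against control DN3a.

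Trbv23 had the steepest fall in DCKO DN3 in both comparisons, on very few counts. It had 2, 1, 3 and 0 counts in DCKO DN3, against 98, 125, 126 and 142 counts in control DN3b and 39, 39, 31 and 24 in control DN3a. The log2 fold change of DCKO DN3 was -6.08 ± 0.47 against control DN3b (adjusted p = 7.08e-06) and -4.10 ± 0.49 against control DN3a (2.21e-05). Trbv24 was the other segment of large fall against control DN3a (-3.75 ± 0.65, 0.000296), with 0, 10, 3 and 0 counts in DCKO DN3, 37, 62, 44 and 27 in control DN3b and 31, 91, 46 and 51 in control DN3a. Unlike most variable segments Trbv24, annotated as a pseudogene, did not pass between control DN3b and control DN3a (-0.27 ± 0.50, 0.672).

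Trbv2 and Trbv16 were among the 5 variable segments of highest mean level. Trbv2 stood at 1.77, 2.12, 1.46 and 0.989 CPM in DCKO DN3, against 12.9, 22.5, 24.7 and 28.2 CPM in control DN3b and 8.94, 8.21, 6.66 and 6.79 CPM in control DN3a. It was lower in every DCKO DN3 library than in any control library, 13.9-fold against control DN3b (adjusted p = 5.1e-06) and 4.82-fold against control DN3a (2.07e-05). Trbv16 kept more of its level: it stood at 4.23, 3.34, 4.99 and 5.45 CPM in DCKO DN3, against 18.5, 27.5, 28.8 and 31.9 CPM in control DN3b and 8.14, 11.2, 9.55 and 7.80 CPM in control DN3a. The groups did not overlap, and the fall was 5.91-fold against control DN3b (9.51e-06) and 2.04-fold against control DN3a (0.000798).

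Trbv13-2 and Trbv12-2 fell least among the variable segments that passed in DCKO DN3; they were grouped after their values were seen, so what follows about the pair is a description. Trbv13-2 (ENSMUSG00000076469, 41121396 to 41121832) stood at 15.4, 17.98, 24.8 and 16.2 CPM in DCKO DN3, against 29.2, 35.3, 31.0 and 40.4 CPM in control DN3b and 24.1, 24.2, 26.7 and 26.7 CPM in control DN3a. DCKO DN3 library 3 reached into the control DN3a range, and no DCKO DN3 library reached that of control DN3b. The log2 fold change was -0.87 ± 0.15 against control DN3b (adjusted p = 0.00228) and -0.45 ± 0.15 against control DN3a (0.0229). The second call was lost without DCKO DN3 library 1 (0.0507) or 4 (0.0656), without control DN3a library 3 (0.0562) or 4 (0.0522), and without DCKO DN3 libraries 1 and 2 together (-0.33, 0.177).

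Trbv12-2 (ENSMUSG00000094525, 41118851 to 41119364) stood at 8.95, 8.88, 11.8 and 10.01 CPM in DCKO DN3, against 17.3, 22.2, 21.8 and 23.0 CPM in control DN3b and 14.3, 14.9, 15.02 and 14.4 CPM in control DN3a. The 3 groups did not overlap. It was 2.12-fold lower than in control DN3b (log2 -1.09 ± 0.13, adjusted p = 0.000169) and 1.48-fold lower than in control DN3a (-0.56 ± 0.13, 0.00245).

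Their relatives Trbv12-1, Trbv13-1 and Trbv13-3 had larger falls, while the pseudogene Trbv12-3 of the same subfamily as Trbv12-2 passed in neither comparison of DCKO DN3. Trbv13-1, which lies between Trbv12-1 and Trbv12-2, stood at 0.887, 1.53, 0.366 and 0.191 CPM in DCKO DN3, against 15.6, 24.3, 28.1 and 31.7 CPM in control DN3b and 5.69, 3.99, 5.85 and 6.82 CPM in control DN3a. It fell 33.4-fold against control DN3b (adjusted p = 2.48e-05) and 7.47-fold against control DN3a (0.000149). Trbv12-1 fell by 4.95 ± 0.53 and 3.06 ± 0.51 on the log2 scale in the same comparisons, and Trbv13-3 by 4.73 ± 0.35 and 2.54 ± 0.34. Without DCKO DN3 libraries 1 and 2 the log2 fold change of Trbv12-1 against control DN3a was -4.93 (adjusted p = 0.000109). Leaving Trbv12-3 aside, Trbv12-2 took 93.3% ± 6.01 of the counts of Trbv12-1 and Trbv12-2 in DCKO DN3, 51.0% ± 5.48 in control DN3b and 72.2% ± 2.04 in control DN3a (SD, n = 4 each). Trbv13-2 took 94.1% ± 3.76 of the counts of its subfamily of 3 in DCKO DN3, 49.97% ± 5.92 in control DN3b and 76.7% ± 3.38 in control DN3a. Libraries of the 3 groups did not overlap in either share.

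**Figure D3:**
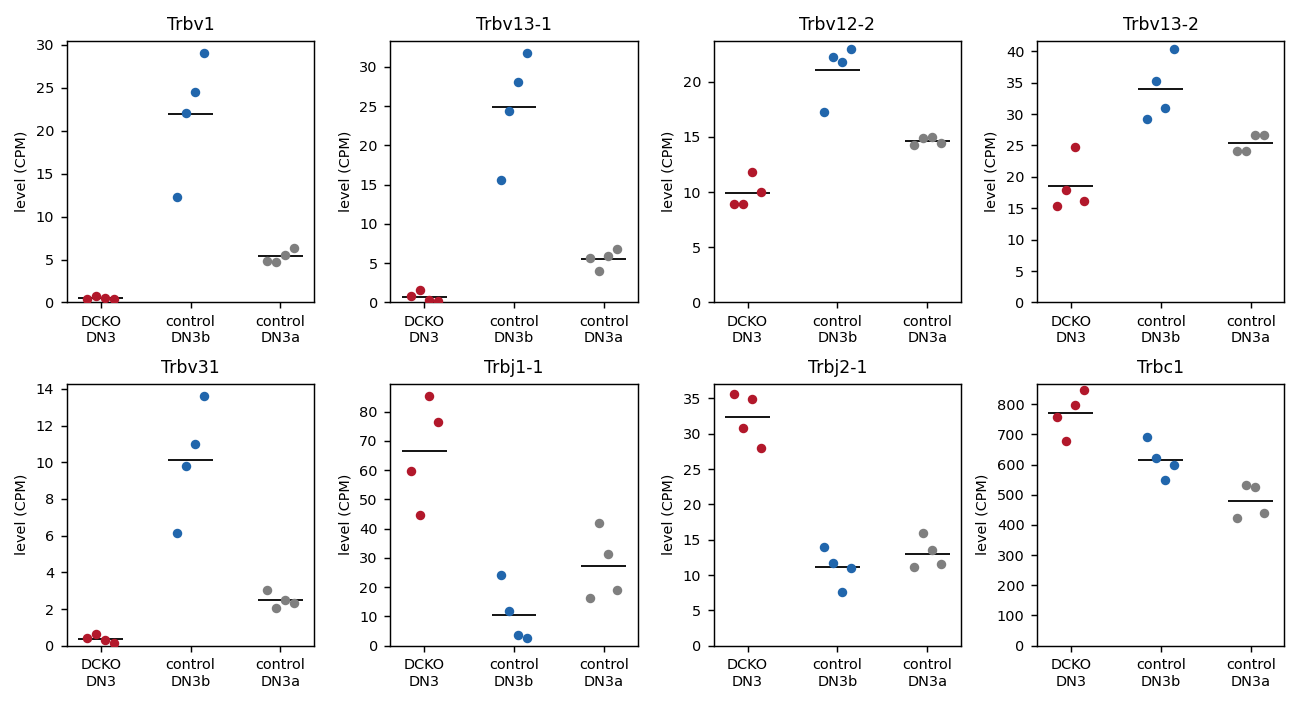
Level in CPM (y axis, from 0, each panel to its own scale) of 8 segments in the 4 libraries of DCKO DN3, control DN3b and control DN3a (x axis); points are libraries and bars group means. Trbv1, Trbv13-1 and Trbv31 lie near 0 in DCKO DN3, Trbv12-2 and Trbv13-2 keep 8.88 CPM or more there, and Trbj1-1 and Trbj2-1 are highest in DCKO DN3.

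The mix of variable segments was narrower in DCKO DN3 than in either control group. The effective number of variable segments, the exponential of the Shannon entropy of their counts, was 8.64, 9.32, 5.60 and 5.31 in DCKO DN3, against 16.3, 16.6, 16.8 and 17.3 in control DN3b and 14.5, 13.8, 13.7 and 14.6 in control DN3a. The 3 groups did not overlap, and DCKO DN3 libraries 3 and 4 were lower than libraries 1 and 2. Trbv13-2 and Trbv12-2 together took 62.7% ± 8.73 of variable segment counts in DCKO DN3, 18.1% ± 3.17 in control DN3b and 35.0% ± 1.29 in control DN3a. Without this pair, variable segments summed to 17.0 ± 4.59 CPM in DCKO DN3, 259 ± 74.9 CPM in control DN3b and 74.6 ± 3.92 CPM in control DN3a. The pair alone summed to 28.5 ± 5.53 CPM in DCKO DN3, 55.0 ± 7.19 CPM in control DN3b and 40.1 ± 1.61 CPM in control DN3a.

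Per kilobase of transcript, Trbv13-2 was the highest variable segment in every group, at 54.6 CPM per kilobase in DCKO DN3, 99.9 in control DN3b and 74.8 in control DN3a. Trbv16 and Trbv15 were the third and the next in each group. Trbv12-2 was second in DCKO DN3 and in control DN3a, with 25.8 and 38.1 CPM per kilobase, and the fifth in control DN3b with 54.7, next to Trbv12-1 with 53.9. Trbv13-1 was the second in control DN3b with 68.1 CPM per kilobase, close to Trbv16 with 67.0, and the seventh in DCKO DN3 with 2.03.

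**Figure D4:**
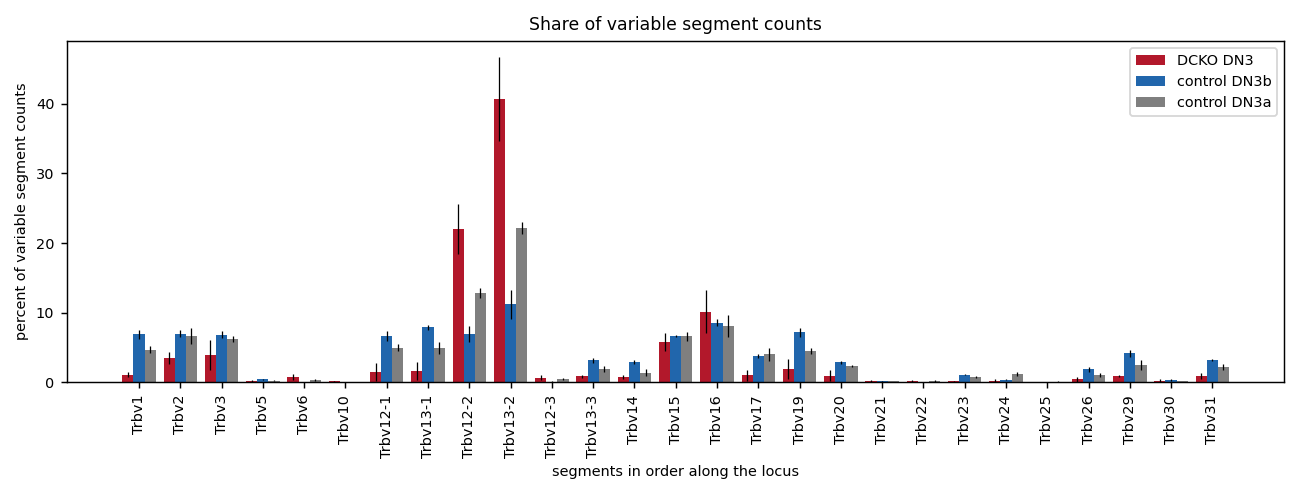
Share of variable segment counts in percent (y axis, from 0) of the 27 variable members in order along the locus (x axis) in DCKO DN3, control DN3b and control DN3a; bars are means of 4 libraries and whiskers ± 1 SD. Trbv13-2 takes 40.7% and Trbv12-2 22.0% of the counts in DCKO DN3.

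The remaining variable segments with a call, Trbv3, Trbv15, Trbv17, Trbv19, Trbv20, Trbv26 and Trbv29, all fell in DCKO DN3 against both control groups and rose in control DN3b over control DN3a, with no overlap between groups. Trbv15 and Trbv3 kept the most of their level. Trbv15 averaged 2.65 ± 0.724 CPM in DCKO DN3, 21.02 ± 5.59 CPM in control DN3b and 7.55 ± 0.975 CPM in control DN3a (SD, n = 4 each), and Trbv3 averaged 1.78 ± 0.964 CPM in DCKO DN3, 21.6 ± 6.01 CPM in control DN3b and 7.09 ± 0.701 CPM in control DN3a. The fall of Trbv15 was 2.99 ± 0.25 on the log2 scale against control DN3b (adjusted p = 9.51e-06), and Trbv3 fell by 3.61 ± 0.35 (3.38e-05). For the other 5 the log2 fold change against control DN3b lay between -5.01 (Trbv29) and -4.35 (Trbv20). Trbv19 averaged 0.856 ± 0.650 CPM in DCKO DN3, 22.8 ± 7.90 CPM in control DN3b and 5.10 ± 0.633 CPM in control DN3a. Without DCKO DN3 libraries 1 and 2, the log2 fold change against control DN3a was -3.98 for Trbv19 (-2.59 with them) and -3.95 for Trbv20 (-2.61 with them).

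Of the 23 tested variable segments, 4 did not pass between DCKO DN3 and control DN3a, and they were low in both of these groups. Trbv5 (0, 0.0835, 0.157 and 0.0319 CPM in DCKO DN3, against 0.857, 1.03, 1.09 and 2.18 in control DN3b and 0.0885, 0.261, 0.308 and 0.228 in control DN3a) fell against control DN3b (log2 -4.04 ± 0.59, adjusted p = 0.000649). Against control DN3a it stood at -1.55 ± 0.65 (0.054) and passed in 7 alternatives, among them upper quartile scaling (0.0297), DESeq2 (0.0377) and limma-voom (0.0497), and without DCKO DN3 library 3 (-2.34, 0.0195), control DN3b library 4 (0.0377) or control DN3a library 1 (0.0289). Trbv5 overlaps the noncoding gene 5830405F06Rik, and how reads over the shared bases were counted is not known here. Trbv30 had 0, 9, 0 and 0 counts in DCKO DN3, against 29, 29, 32 and 61 in control DN3b and 9, 11, 8 and 4 in control DN3a. It fell against control DN3b (-3.89 ± 0.81, 0.00564) and not against control DN3a (-1.51 ± 0.90, 0.164), where limma-voom called it (-2.67, 0.0148). Without DCKO DN3 library 2, which held all its DCKO DN3 counts, the log2 fold changes were -8.28 (0.000889) against control DN3b and -5.91 (0.00233) against control DN3a. The call against control DN3b was lost with replicate number as a block (-4.20, 0.0543). These values without library 2 rest on a group at 0 and give no size.

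Trbv6 and Trbv12-3 did not follow the class. With Trbv24 they are the tested variable segments annotated as pseudogenes, and none of these was higher in control DN3b than in control DN3a. Trbv12-3 had 4, 17, 8 and 10 counts in DCKO DN3, against 10, 4, 6 and 0 in control DN3b and 25, 29, 15 and 12 in control DN3a. DCKO DN3 overlapped both control groups. Trbv12-3 passed the low-count filter only through control DN3a, where it is highest. It was the only variable segment called lower in control DN3b than in control DN3a (log2 -1.94 ± 0.57, adjusted p = 0.0125), and did not pass in DCKO DN3 (1.17 ± 0.60, 0.192 against control DN3b; -0.77 ± 0.53, 0.224 against control DN3a). Trbv6 passed in none of the 3 comparisons (0.322, 0.919 and 0.262 for DCKO DN3 against control DN3b, DCKO DN3 against control DN3a and control DN3b against control DN3a). The 4 members that were not tested had 12 to 91 counts over all 12 libraries.

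In control DN3b the largest rises over control DN3a were those of Trbv14, Trbv5 and Trbv30. Trbv14 stood at 0.524, 0.306, 0.418 and 0.191 CPM in DCKO DN3, against 5.29, 9.01, 9.87 and 13.4 CPM in control DN3b and 0.797, 1.57, 1.80 and 2.15 CPM in control DN3a. The groups did not overlap, and control DN3b was 5.94-fold above control DN3a (log2 2.57 ± 0.35, adjusted p = 0.000109). Trbv5 rose by 2.49 ± 0.50 (0.00126) and Trbv30 by 2.38 ± 0.69 (0.0108). Control DN3a held only 3, 14, 13 and 7 counts of Trbv5 and 9, 11, 8 and 4 of Trbv30. Both passed the low-count filter only through control DN3b, where they are high. Their places among the largest rises are therefore not independent of that filter. At the low end Trbv12-2 rose by 0.52 ± 0.13 (0.00454) and Trbv13-2 by 0.42 ± 0.15 (0.0362). The call of Trbv13-2 was lost without control DN3b library 2 (0.0815) or 4 (0.125) or without any single control DN3a library (0.0505 to 0.081), with upper quartile scaling (0.15) and with no low-count filter (0.0533). Of the 23 variable segments tested, 20 lay higher in control DN3b with no overlap between the groups, a pattern that 24.8% of all genes showed.

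Trbd1, the diversity segment upstream of cluster 1, stood at 7.70, 6.60, 7.03 and 8.17 CPM in DCKO DN3, against 5.26, 3.73, 1.80 and 2.38 CPM in control DN3b and 5.90, 7.26, 7.39 and 6.50 CPM in control DN3a. DCKO DN3 overlapped control DN3a and lay above every control DN3b library. It was 2.23-fold above control DN3b (log2 1.16 ± 0.27, adjusted p = 0.0107), a call lost with replicate number as a block (0.0523) and without DCKO DN3 libraries 1 and 2 together (0.0632). Against control DN3a its change was 0.12 ± 0.27 (0.707), or -0.10 (0.758) with upper quartile scaling. In control DN3b it fell 2.05-fold against control DN3a (-1.03 ± 0.27, 0.00645).

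Trbd2, which serves only cluster 2, was low throughout, at 0.524, 0.863, 0.575 and 0.574 CPM in DCKO DN3, against 1.02, 0.786, 0.796 and 0.683 CPM in control DN3b and 0.767, 0.728, 1.09 and 0.617 CPM in control DN3a. The groups overlapped. Its log2 fold change was -0.37 ± 0.28 (adjusted p = 0.373) for DCKO DN3 against control DN3b, -0.33 ± 0.28 (0.313) against control DN3a and 0.04 ± 0.27 (0.916) between the control groups, where the sign turned with upper quartile scaling and without control DN3b library 1.

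Trbj1-1, the first joining segment of cluster 1 and the highest of it, was the segment with the largest rise in DCKO DN3 against control DN3b. Its level was 59.8, 44.6, 85.3 and 76.4 CPM in DCKO DN3, against 24.1, 11.8, 3.56 and 2.67 CPM in control DN3b and 16.1, 41.9, 31.3 and 18.9 CPM in control DN3a. Every DCKO DN3 library lay above every control library, and control DN3b library 1 lay within the control DN3a range. It was 6.29-fold above control DN3b (log2 2.65 ± 0.58, adjusted p = 0.00734; 3.46 without control DN3b library 1, 0.000877). Against control DN3a the rise of 1.29 ± 0.55 missed the threshold (0.0571). It passed with no low-count filter (0.0424), with the 8 libraries of the comparison alone (0.00469), with replicate number as a block (0.00748) and with limma-voom (0.0172). The rise also passed without control DN3b library 1 (0.0168), 3 (0.0447) or 4 (0.0315) or control DN3a library 2 (0.0438). Between control DN3b and control DN3a Trbj1-1 stood at -1.36 ± 0.56 (0.0557), and at -2.16 (0.00261) without control DN3b library 1 or -1.80 (0.0239) with replicate number as a block.

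The other 6 joining segments of cluster 1 were also higher in DCKO DN3 than in control DN3b, and by less the farther along the cluster they lie: log2 fold changes were 1.98 ± 0.39 for Trbj1-2, 1.48 ± 0.38 for Trbj1-3, 1.44 ± 0.41 for Trbj1-4 and between 1.15 and 1.19 for Trbj1-5 to Trbj1-7. No test of this order along the cluster was made. The DCKO DN3 and control DN3b libraries did not overlap for Trbj1-1, Trbj1-2 and Trbj1-3, as for 11.0% of all genes in that direction, and overlapped for the other 4, where control DN3b library 1 was the highest of its group. Of the 7 calls, 2 were left with replicate number as a block or without DCKO DN3 library 3 or control DN3b library 3, and 4 without DCKO DN3 library 4 or control DN3b library 2 or 4. Between the control groups 4 of the 7 fell in control DN3b; without control DN3b library 1, or with the replicate block, all 7 did, and without control DN3b library 3 or 4 or control DN3a library 2 or 3 only 1 did.

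Within cluster 1, Trbj1-1 took 36.0% ± 3.04 of the counts in DCKO DN3, 16.7% ± 6.77 in control DN3b and 23.0% ± 2.42 in control DN3a (SD, n = 4 each). DCKO DN3 libraries lay between 33.2% and 40.2%, above all control libraries, the highest of which was at 26.0%. Trbj1-2 took 20.2% in DCKO DN3, 17.7% in control DN3b and 20.4% in control DN3a, and Trbj1-3 to Trbj1-7 each took a smaller mean share in DCKO DN3 than in either control group.

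Trbj2-1, first of cluster 2, rose against both control groups. Its level was 35.6, 30.8, 35.0 and 28.0 CPM in DCKO DN3, against 14.0, 11.8, 7.59 and 11.0 CPM in control DN3b and 11.2, 15.9, 13.6 and 11.5 CPM in control DN3a. DCKO DN3 lay far above both control groups, and these overlapped. It was 2.92-fold above control DN3b (log2 1.55 ± 0.18, adjusted p = 0.00014) and 2.48-fold above control DN3a (1.31 ± 0.18, 5.97e-05), and these calls held in every alternative run. Between the control groups it missed the threshold (-0.24 ± 0.18, 0.281).

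Apart from Trbj2-1, no joining segment of cluster 2 was called higher in DCKO DN3 against both control groups. Trbj2-3 was higher in DCKO DN3 than in control DN3b (log2 0.51 ± 0.16, adjusted p = 0.042), a call lost in 13 alternatives, among them without DCKO DN3 libraries 1 and 2 (0.47, 0.223). Trbj2-4 was lower than in control DN3a (-0.79 ± 0.23, 0.0103), as was Trbj2-7 (-0.39 ± 0.14, 0.0304), whose call was lost in 9 alternatives, among them without DCKO DN3 libraries 1 and 2 (-0.32, 0.158). Trbj2-4 was also lower in control DN3b than in control DN3a (-0.62 ± 0.23, 0.0392), a call lost in 8 alternatives, among them without control DN3b library 1 (-0.64, 0.0519). Trbj2-2, Trbj2-5 and Trbj2-6 passed in none of the 3 comparisons. With replicate number as a block, Trbj2-6 was higher (0.36, 0.0491) and Trbj2-7 lower (-0.35, 0.0165) in control DN3b than in control DN3a. In the main fit this fall of Trbj2-7 missed the threshold (-0.32 ± 0.14, 0.0676), and its groups did not overlap, as for 23.0% of all genes in that direction. The fall also passed with upper quartile scaling (0.0144), count minimum 30 (0.0467), the 8 libraries alone (0.0482) and DESeq2 (0.0216), and without DCKO DN3 library 4 (0.0488). Trbj2-5 stood at -1.84 ± 0.63 (0.0593) against control DN3b and passed there with DESeq2 (0.0193) and without DCKO DN3 library 4 (0.0159) or control DN3b library 4 (0.0321), and without DCKO DN3 library 4 it also passed against control DN3a (-2.07, 0.0182). Trbj2-1 took 56.1% ± 4.23 of the counts of cluster 2 in DCKO DN3, 30.4% ± 4.15 in control DN3b and 30.6% ± 3.68 in control DN3a, while Trbj2-7 took 12.3% ± 2.20 in DCKO DN3, 20.5% ± 2.33 in control DN3b and 21.7% ± 1.98 in control DN3a. In each cluster the joining segment nearest to its diversity segment had the larger share in DCKO DN3.

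**Figure D5:**
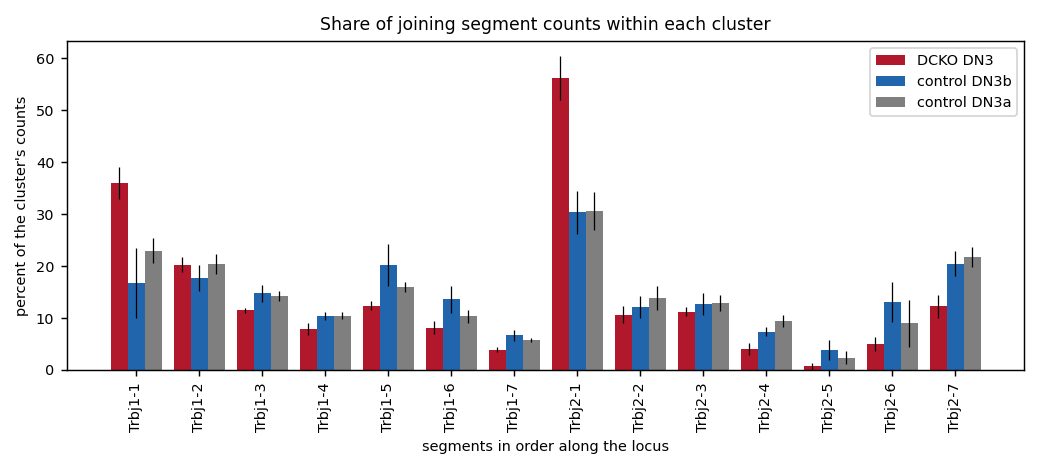
Share in percent (y axis, from 0) that each joining segment takes of the counts of its own cluster, for the 14 joining segments in order along the locus (x axis) in DCKO DN3, control DN3b and control DN3a; bars are means of 4 libraries and whiskers ± 1 SD. Trbj1-1 takes 36.0% of cluster 1 and Trbj2-1 56.1% of cluster 2 in DCKO DN3, against at most 23.0% and 30.6% in the control groups.

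The constant genes had the highest levels of all members. Trbc1 stood at 758, 679, 798 and 846 CPM in DCKO DN3, against 691, 623, 548 and 597 CPM in control DN3b and 424, 533, 526 and 439 CPM in control DN3a. Every DCKO DN3 library lay above every control DN3a library, and DCKO DN3 library 2 lay within the control DN3b range. Its rise against control DN3a was 0.68 ± 0.11 on the log2 scale (adjusted p = 0.00025); against control DN3b it stood at 0.33 ± 0.11 (0.0635) and passed with DESeq2 (0.0233) and without control DN3b library 1 (0.0412). Control DN3b lay above control DN3a (0.36 ± 0.11, 0.019), a call lost with upper quartile scaling (0.155) and without control DN3b library 2 (0.0506) or control DN3a library 1 (0.0584) or 4 (0.0531).

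Trbc2 stood at 1084, 865, 940 and 944 CPM in DCKO DN3, against 1050, 1043, 1046 and 1126 CPM in control DN3b and 661, 667, 682 and 668 CPM in control DN3a. DCKO DN3 overlapped control DN3b, and both lay above all control DN3a libraries. It rose against control DN3a by 0.52 ± 0.09 in DCKO DN3 (adjusted p = 0.000337; 0.29, 0.0111, with upper quartile scaling) and by 0.67 ± 0.09 in control DN3b (0.000101). Between DCKO DN3 and control DN3b it missed the threshold (-0.15 ± 0.09, 0.252).

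Trbc1 took 41.2%, 44.0%, 45.9% and 47.3% of the counts of both constant genes in DCKO DN3, against 39.7%, 37.4%, 34.4% and 34.7% in control DN3b and 39.1%, 44.5%, 43.5% and 39.6% in control DN3a. DCKO DN3 lay above control DN3b in every library and overlapped control DN3a. The exact two-sided permutation test gave p = 0.0286 for DCKO DN3 against control DN3b (a difference of 8.05 percentage points), the smallest p that 4 against 4 libraries allow, and 0.0857 after adjustment over the 3 comparisons. For DCKO DN3 against control DN3a the difference was 2.91 points (exact p = 0.171, adjusted 0.171) and for control DN3b against control DN3a -5.14 points (exact p = 0.0857, adjusted 0.129). The 96.1% identity of the 2 genes makes this share sensitive to how shared reads were counted.

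The recombination machinery was measured beside the segments, in a list of 14 genes. In DCKO DN3 4 rose and 2 fell against control DN3b, and 6 rose and 3 fell against control DN3a; in control DN3b 4 rose and 5 fell against control DN3a. The shares of all genes called in these comparisons were 18.9%, 60.2% and 52.6% in the order given. Rag1, which encodes the cutting subunit of the recombinase, stood at 5274, 6799, 3094 and 2091 CPM in DCKO DN3, against 1629, 846, 748 and 765 CPM in control DN3b and 2486, 1589, 1316 and 1859 CPM in control DN3a. It was higher than in control DN3b in every DCKO DN3 library (log2 2.11 ± 0.37, adjusted p = 0.00191) and overlapped control DN3a (1.25 ± 0.36, 0.00877). Rag2, its partner subunit, rose against control DN3b (1.28 ± 0.27, 0.00606) and did not pass against control DN3a (-0.05 ± 0.27, 0.891). Dntt, which encodes the terminal transferase that adds bases at the junctions, passed in neither comparison of DCKO DN3 (0.45, 0.0656 against control DN3b; 0.11, 0.55 against control DN3a). Of the double-strand break factors, Xrcc4 (0.80 ± 0.13, 0.00115) and Lig4 (0.91 ± 0.17, 0.00269) rose against control DN3b, and the polymerase genes Poll (-1.92 ± 0.46, 0.0122) and Polm (-2.07 ± 0.42, 0.00499) fell. Against control DN3a, Xrcc4, Lig4 and Poll were called in the same directions, and Polm did not pass (-0.24, 0.649). Polm rose in control DN3b against control DN3a (1.83, 0.00248).

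Among 7 genes for partners of the beta chain in the pre-TCR and its first kinases, 2 rose and 1 fell in DCKO DN3 against control DN3b, 0 rose and 1 fell against control DN3a, and in control DN3b 1 rose and 5 fell against control DN3a, where 18.9%, 60.2% and 52.6% of all genes were called. Ptcra, which encodes pre-T alpha, stood at 108, 132, 70.8 and 77.9 CPM in DCKO DN3, against 129, 41.5, 37.8 and 40.2 CPM in control DN3b and 237, 92.6, 94.5 and 122 CPM in control DN3a. DCKO DN3 overlapped both control groups, and control DN3b library 1 again stood apart from its group. Cd3g, a CD3 subunit, was 2.40-fold above control DN3b (adjusted p = 0.000293), and Zap70, a kinase that acts on the engaged receptor, lay below it by 2.03 ± 0.18 on the log2 scale (1.18e-05). Neither passed in DCKO DN3 against control DN3a (log2 0.07, 0.712 for Cd3g and -0.22, 0.272 for Zap70). In control DN3b against control DN3a, Cd3g fell (-1.19, 0.000118) and Zap70 rose (1.81, 2.63e-05).

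Markers of other cells were summed per library beside these results. The list for CD4 and CD8 expressing thymocytes and mature alpha-beta T cells summed to 4.71 to 17.3 CPM in DCKO DN3, 14.2 to 34.9 CPM in control DN3b and 2.51 to 3.70 CPM in control DN3a, with Cd40lg at 0 in DCKO DN3 and control DN3a; of its 5 tested genes 0 rose and 3 fell against control DN3b (18.9% of all genes called), and 2 rose and 0 fell against control DN3a (60.2%), in DCKO DN3. Gamma-delta T cell markers summed to 363 to 710 CPM in DCKO DN3, 522 to 838 CPM in control DN3b and 1425 to 1644 CPM in control DN3a, from 7 of 8 genes in the table. B cell markers summed to 18.7 to 24.7 CPM in DCKO DN3, 9.76 to 32.1 CPM in control DN3b and 42.7 to 58.4 CPM in control DN3a, of which nearly all was Cd79b. Myeloid markers summed to 8.04 to 19.3 CPM in DCKO DN3, 1.43 to 9.79 CPM in control DN3b and 19.5 to 31.4 CPM in control DN3a. NK cell markers were nearly all Gzma, at 260 to 461 CPM in DCKO DN3, 377 to 569 CPM in control DN3b and 97.9 to 214 CPM in control DN3a. The earlier thymocyte list summed to 40.6 to 53.5 CPM in DCKO DN3, 19.8 to 31.2 CPM in control DN3b and 29.6 to 47.5 CPM in control DN3a. The part of any of these cells in the segment levels was not tested.

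Other genes lie between the TCR beta segments, among them trypsinogens. Of 28 such genes, 22 had no count and 3 had at least 10 over all libraries. Of these, 5830405F06Rik had 1078 counts, Prss2 118 and 2210010C04Rik 61. The pancreas list (Cela1, Cpa1 and Pnlip) summed to 0.497 to 0.702 CPM in DCKO DN3, 0.0246 to 0.0952 CPM in control DN3b and 0 to 0.112 CPM in control DN3a, with Cpa1 and Pnlip at 0 in every group. Cela1, an elastase gene, was 12.2-fold higher in DCKO DN3 than in control DN3b (adjusted p = 0.00101) and 10.5-fold higher than in control DN3a (0.000184). It passed the low-count filter only through DCKO DN3, where it is high, so these calls are not independent of that filter. Both control groups were near 0, and the sizes of these folds rest on few counts.

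The authors' deposited tables called 33 of 42 members with an adjusted p in DCKO DN3 against control DN3b, 11 higher and 22 lower, beside 20.0% of all genes. Against control DN3a the authors' deposited table called 5 of 45 higher and 21 lower, beside 47.6% of all genes. For control DN3b against control DN3a the authors' deposited table called 22 of 45 higher and 10 lower, beside 44.0% of all genes.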

How the data were processed

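Per the labels' protocols, sorted cells gave total RNA (RNeasy Micro) for stranded libraries depleted of ribosomal RNA. Named in the submitters' processing notes are the build GRCm38 and the tools HTSeq, TopHat2 2.0.12, Trim Galore and DESeq2 1.6.3. Their roles, the annotation release and the strand setting were not given in the sources used here. Reads of overlapping or antisense genes, of near-identical segments, or across more than 1 segment can be mixed, split or lost. The authors deposited raw counts per Ensembl gene, from which every value was computed unless the authors' tables are named. A deposited table of signal holds, by its values, those counts divided by 1 factor per library, and served as a check of the counts. In the deposited DESeq2 tables the authors give log2 fold changes with errors, a Wald score and p-values.

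Symbols, positions and sequences are from GENCODE M21 (GRCm38), which named 42462 of the 43629 genes. All 12 libraries entered 1 edgeR 4.0.16 quasi-likelihood fit (R 4.3.3, limma 3.58.1) with group as the only term, TMM factors and filterByExpr (count minimum 10), which kept 13944 genes; 9 residual degrees of freedom remained. Tests were two-sided and Benjamini-Hochberg adjusted over all genes of a contrast, with 0.05 as the threshold. The SE is the log2 fold change divided by the square root of F. The fit was tested on simulated data. Alternatives were other scalings (upper quartile; DESeq2 size factors), no or a stricter filter (count minimum 30), DESeq2 1.42.0, limma-voom, the 8 libraries of a comparison alone, replicate number as a block, each library left out and DCKO DN3 libraries 1 and 2 left out. Replicate numbers paired control DN3b with control DN3a (correlation of deviations 0.354 to 0.564 within numbers) but not DCKO DN3 with either (-0.257 to 0.119). The main fit does not use this pairing, and the block does. Every replicate pair differed beyond counting noise, with a chi-square of at least 33.5 per degree of freedom. Spreads between libraries, not counting intervals, are given, since PCR copies are not told apart.

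The members and gene lists were chosen with earlier results of these data known. Given in every library are the constant and diversity genes, Trbv1, Trbv31, the highest joining segment of each cluster, the 5 highest variable segments, and up to 3 called variable segments of largest rise and fall per comparison. Other members and context genes are named where a count is small or a group differs, which was chosen after their values were seen; the pair Trbv12-2 and Trbv13-2, and its comparison with relatives, likewise.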

Additional observations from a re-analysis of the deposited data

Results flagged for a closer look

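Of 90 groups of 4 values checked, 5 had a library whose gap to the next exceeded 0.829 of the range; chance flags about 1 in 20 groups. Trbc2 stood at 1125.89 CPM in control DN3b library 4, against 1043 to 1050 CPM in the other 3. Trbd2 stood at 0.863 CPM in DCKO DN3 library 2, against 0.524 to 0.575 CPM in the others. Trbv23 stood at 1.15 CPM in control DN3a library 1, against 0.728 to 0.780 CPM. Trbv30 stood at 0.251 CPM in DCKO DN3 library 2, where the others had no count, and at 1.99 CPM in control DN3b library 4, against 0.691 to 0.849 CPM.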

How the results depend on the processing

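The fall of variable segments in DCKO DN3 and their rise in control DN3b kept their direction in all alternatives run: 0 were called higher in DCKO DN3, 18 to 21 lower against control DN3a and 20 to 22 lower against control DN3b, and 19 or 20 were higher in control DN3b than in control DN3a. Calls of the joining segments depended more on single libraries. Members higher in DCKO DN3 than in control DN3a numbered 5, not 3, with the 8 libraries alone and also with the replicate block. With the block, members higher than in control DN3b numbered 3, not 10. The numbers do not pair DCKO DN3 with either control group, so the block accounts for no pairing in these comparisons. Members lower in control DN3b than in control DN3a numbered 12 with upper quartile scaling and 11 with the block, not 7. Leaving out single libraries gave 22 to 26 calls for DCKO DN3 against control DN3a (3 to 4 higher, 19 to 22 lower), 25 to 33 against control DN3b (4 to 11 higher, 21 to 22 lower) and 24 to 31 between the control groups (20 to 22 higher, 3 to 9 lower). Members higher than in control DN3b numbered 4 without DCKO DN3 library 3 or control DN3b library 3 and 6 without control DN3b library 2. Members lower in control DN3b numbered 3 without control DN3b library 3 or 4 or control DN3a library 2 or 3. The causes were not tested. With upper quartile scaling the all-gene median was -0.26 for DCKO DN3 against control DN3a and -0.17 between the control groups, and the log2 fold changes of Trbd1 and Trbd2 turned to -0.10 and -0.11 in those comparisons. Trbd2 between the control groups ranged from -0.081 to 0.225 without single libraries, below 0 without control DN3b library 1 (-0.081) and control DN3a library 2 (-0.010) or 4 (-0.060). Without pseudogenes the effective number of variable segments in control DN3a was 13.2, not 14.1. With sign flips of the 4 numbered pairs the Trbc1 share had exact p = 0.25 for control DN3b against control DN3a, where 0.125 is the smallest possible. Segments under about 10 counts per library, such as Trbv23 and Trbv30 in DCKO DN3, have fold changes set by a few reads.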
